A study of Homo sapiens with 2 samples.

Results

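The genes that encode the writers and erasers of histone methylation were followed at their ends in PANC-1 cells, a line grown from a human carcinoma of the pancreatic duct. They were taken by symbol as all RefSeq protein-coding genes on chromosomes 1 to 22 and X that start with KDM, KMT, SETD or EZH, together with EED, SUZ12, SUV39H1, SUV39H2, EHMT1, EHMT2, NSD1, NSD2, NSD3, DOT1L and ASH1L. The rule found 53 of 19974 protein-coding genes. The study consisted of 1 ChIPmentation library from cells treated with inflachromene, a small molecule that binds the chromatin proteins HMGB1 and HMGB2, and 1 library from cells treated with the solvent DMSO. In ChIPmentation the chromatin is immunoprecipitated and the sequencing adapters are inserted by the transposase Tn5 while it is still on the beads. Both libraries came from the same line after crosslinking with EGS and then formaldehyde, and the sources used here name neither the antibody's target nor the dose or length of treatment. With 1 library per treatment nothing could be tested, and every difference below compares these libraries and not the treatments.

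The deposited lists held 10836 peaks in inflachromene and 15186 in DMSO on these chromosomes, and the number of sequenced fragments in inflachromene was inferred to be 0.964 times that in DMSO. The lowest background recovered from the lists, which rises with fragment length as well as number, was instead higher in inflachromene (0.683) than in DMSO (0.651). A gene was counted with a peak in a list where that list's summit lay within 1000 bp of either annotated end of the gene, or where its peak overlapped such a peak of the other list. The strength of a peak is given as its pileup, the number of fragments over the summit, which was recovered from the deposited values, and as the authors' deposited fold enrichment over the local background. All intervals are 95% intervals that cover counting error only. Of the markers of the line, KRT8, KRT18, SOX9, VIM and CAV1 had peaks in both lists and KRT19 and ZEB1 in DMSO alone, while EPCAM and KRT7 had none. KRT8 and KRT18 share their site. Of 15 markers of acinar, islet, immune, endothelial, stromal, liver and neuronal cells, only SYP, the neuronal marker, had a peak.

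Methyl groups on histone lysines are placed mostly by enzymes with a SET domain and removed by flavin-dependent amine oxidases and by jumonji oxygenases. The effect depends on the residue: methylated H3K4 and H3K36 are found at active genes, H3K27 methylation by the Polycomb complex PRC2 and H3K9 methylation mark silent chromatin, and H4K20 methylation is tied to the cell cycle and to chromatin compaction. Several of these genes, among them KMT2C, KMT2D and KDM6A, are known to be mutated in pancreatic cancer.

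Promoters of 7 members are shown because they carry the contrasts described further on. KMT5C, KMT5A and KDM2A had the highest mean pileups among members with a summit inside the tabulated promoter. KMT2E, EHMT2 and KMT5B had the highest DMSO pileups among members with such a summit and a peak in DMSO alone. KDM6A, chosen after its values were seen, had the highest ratio of inflachromene to DMSO pileup. The sequences are from RefSeq (GRCh38.p14, the same coordinates as hg38) and run 5′ to 3′ along the gene, with 250 bases before the annotated start and 50 from it on. Capitals mark matches on either strand to the 8 motifs listed in the next paragraph.
KMT5C, chr19:55339626-55339925 (+ strand): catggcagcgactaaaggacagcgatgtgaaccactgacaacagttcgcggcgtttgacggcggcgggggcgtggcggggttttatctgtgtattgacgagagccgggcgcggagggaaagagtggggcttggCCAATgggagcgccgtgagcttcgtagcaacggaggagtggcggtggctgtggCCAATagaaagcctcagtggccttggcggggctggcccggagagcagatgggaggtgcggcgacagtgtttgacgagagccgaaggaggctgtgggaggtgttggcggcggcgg
KMT5A, chr12:123383882-123384181 (+ strand): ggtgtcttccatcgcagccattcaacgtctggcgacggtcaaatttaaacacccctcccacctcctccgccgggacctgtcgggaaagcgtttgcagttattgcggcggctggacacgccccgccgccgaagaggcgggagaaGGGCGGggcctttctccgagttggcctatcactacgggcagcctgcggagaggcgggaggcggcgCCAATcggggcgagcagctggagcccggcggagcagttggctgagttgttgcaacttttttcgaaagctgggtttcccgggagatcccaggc
KDM2A, chr11:67119013-67119312 (+ strand): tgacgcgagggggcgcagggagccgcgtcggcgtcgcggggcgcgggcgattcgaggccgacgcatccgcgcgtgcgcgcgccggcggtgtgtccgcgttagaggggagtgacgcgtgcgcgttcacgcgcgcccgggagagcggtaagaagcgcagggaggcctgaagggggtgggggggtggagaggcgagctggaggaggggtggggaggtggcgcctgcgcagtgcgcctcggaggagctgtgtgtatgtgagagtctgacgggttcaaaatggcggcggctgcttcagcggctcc
KMT2E, chr7:105013955-105014254 (+ strand): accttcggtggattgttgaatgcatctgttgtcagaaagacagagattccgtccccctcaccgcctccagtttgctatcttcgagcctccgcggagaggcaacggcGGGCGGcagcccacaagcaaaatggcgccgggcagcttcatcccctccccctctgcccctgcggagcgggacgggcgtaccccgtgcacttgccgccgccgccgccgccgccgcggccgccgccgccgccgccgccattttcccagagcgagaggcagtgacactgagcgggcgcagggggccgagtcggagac
EHMT2, chr6:31897649-31897948 (- strand): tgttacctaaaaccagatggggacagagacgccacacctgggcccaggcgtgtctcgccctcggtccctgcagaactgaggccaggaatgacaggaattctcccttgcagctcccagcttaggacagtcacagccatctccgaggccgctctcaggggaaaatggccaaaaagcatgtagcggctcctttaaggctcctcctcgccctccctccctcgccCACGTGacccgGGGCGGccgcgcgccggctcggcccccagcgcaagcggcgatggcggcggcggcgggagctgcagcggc
KMT5B, chr11:68213599-68213898 (- strand): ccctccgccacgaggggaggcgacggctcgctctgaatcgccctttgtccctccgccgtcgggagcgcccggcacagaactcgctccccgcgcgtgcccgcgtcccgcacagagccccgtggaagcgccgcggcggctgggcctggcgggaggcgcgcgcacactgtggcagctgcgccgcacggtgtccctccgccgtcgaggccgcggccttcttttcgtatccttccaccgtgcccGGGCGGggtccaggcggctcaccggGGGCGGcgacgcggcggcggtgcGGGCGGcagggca
KDM6A, chrX:44872938-44873237 (+ strand): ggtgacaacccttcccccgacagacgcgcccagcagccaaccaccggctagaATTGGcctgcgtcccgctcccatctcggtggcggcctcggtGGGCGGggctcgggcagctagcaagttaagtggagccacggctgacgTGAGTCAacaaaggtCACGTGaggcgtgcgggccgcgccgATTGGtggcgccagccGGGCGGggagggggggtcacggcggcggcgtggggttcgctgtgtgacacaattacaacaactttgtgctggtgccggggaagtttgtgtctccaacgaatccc

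The motifs reported are the GC box (GGGCGG), the CCAAT box (CCAAT), the E-box (CACGTG), sites of ETS factors (CCGGAAG), YY1 (AAGATGG), CREB (TGACGTCA) and AP-1 (TGANTCA), and the TATA box (TATAAA), none of which contains another. A match is a description of the letters and not a site shown to be bound. Motifs of NRF1 and BANP were searched as well and are not reported here. KDM6A was the only printed promoter with an AP-1 match, beside 2 GC boxes, 2 CCAAT boxes and 1 E-box. KMT5C held 2 CCAAT boxes, KMT5A 1 CCAAT box and 1 GC box, and KDM2A none of the motifs. Among the promoters of genes with a peak in DMSO alone, KMT5B held 3 GC boxes, KMT2E 1, and EHMT2 1 together with 1 E-box. The summits of both libraries at KMT5C fell on base 36 of the printed sequence. At KDM6A the inflachromene summit fell on base 154 and the DMSO summit on base 64. The DMSO summits of KMT2E, KMT5B and EHMT2 fell on bases 188, 168 and 294.

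Over the 49 members with a tabulated promoter, 1 promoter per gene, the median GC content was 66.3% and the median number of CpG dinucleotides 29, against 62.7% and 22 over 15812 protein-coding genes. The 31 promoters of members with a peak in both lists had a median of 30 CpG, as had the 6 of members with a peak in DMSO alone, and the 12 of members without a peak had 21. Over all genes the same classes had 27, 27 and 10. These classes go by peaks at either gene end and not by peaks in the tabulated promoter. KDM2B, KDM3A, SETD3 and SUV39H1 count as without a peak but had a shared peak at a tabulated start. KMT2D counts as shared through its 3′ end alone. A GC box was present in 37 of the 49 member promoters (75.5%), against 58.5% of all promoters. Within the shared class alone it was present in 26 of 31 member promoters (83.9%), against 74.7% of all promoters of that class. An E-box was present in 9 of the 49 (18.4%), against 8.87% of all promoters. The CCAAT box was present in 19 (38.8%, against 36.3%) and the ETS motif in 7 (14.3%, against 14.2%). YY1 matches were present in 4 member promoters (8.16%, against 6.4% of all), AP-1 matches in 2 (4.08%, against 5.76%), and a CREB match in 1 (2.04%, against 2.59%). No member promoter held the TATA string, which 9.64% of all promoters held.

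Most members had a peak at a gene end. In inflachromene 32 of the 53 members did so (60.4%, Clopper-Pearson interval 46.0 to 73.5), against 38.2% of all protein-coding genes. In DMSO 39 did (73.6%, 59.7 to 84.7), against 45.8% of all genes. Shared peaks were present at 32 members (36.6% of all genes), peaks in DMSO alone at 7 (13.2%, against 9.26% of all genes), peaks in inflachromene alone at 0 (1.59% of all genes; a count of 0 among 53 allows a share of up to 5.66% taken as 3 genes, and the Clopper-Pearson bound is 6.72%), and no peak at 14 (52.6% of all genes). Among genes with a DMSO peak, the peak was in DMSO alone at 7 of 39 members (17.9%, 7.54 to 33.5) and at 20.2% of all genes. Taken without regard to peak strength, the members' share of genes without an inflachromene counterpart was thus close to the background, which the plot of peaks by list shows beside the role groups.

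**Figure D1:**
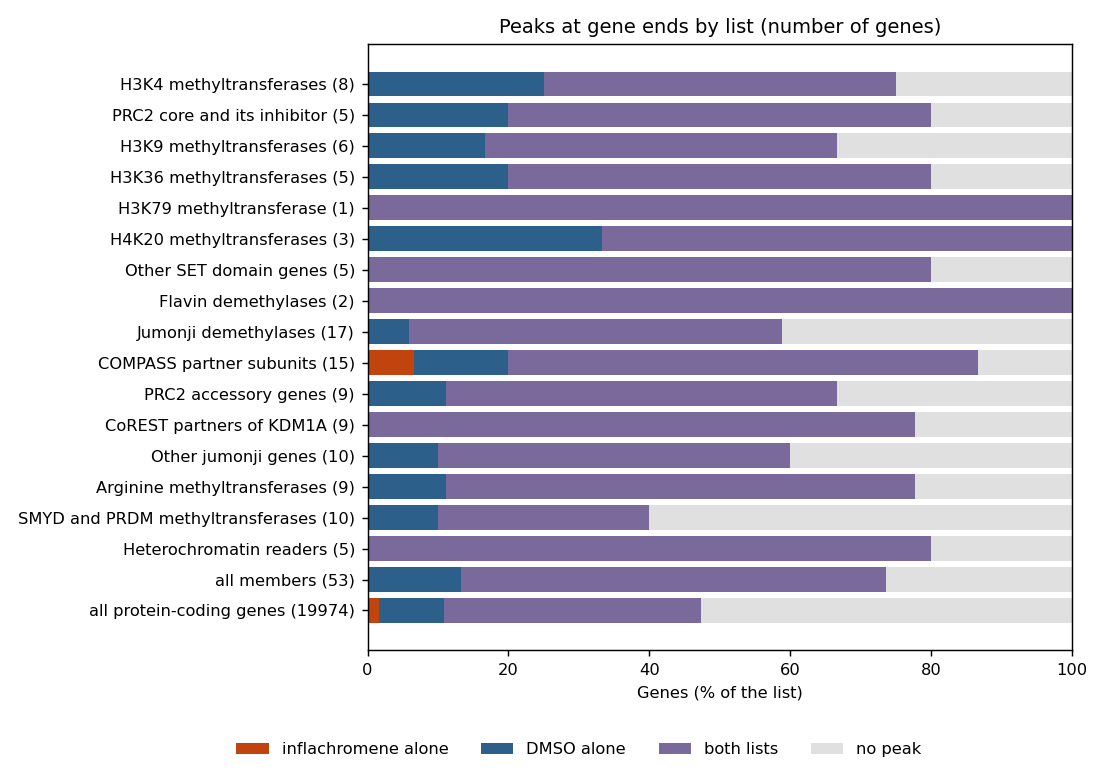
Share of the genes of each list (horizontal axis, percent) with a gene-end peak in inflachromene alone, in DMSO alone, in both lists or in neither, with the number of genes in parentheses. No role group of the members has a gene with a peak in inflachromene alone, and the bar of all 53 members is filled to 73.6%, that of all protein-coding genes to less.

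The 7 members with a peak in DMSO alone were KMT2E, SETD1A, EZH1, EHMT2, NSD3, KMT5B and KDM5C, that is, 6 of 26 writers with a DMSO peak and 1 of 12 erasers with one, beside 20.2% of all genes with one. Writers are here all members outside the demethylase groups and the readthrough gene. They include the PRC2 subunits and inhibitor and the other SET domain genes, not all of them histone methyltransferases. The strongest DMSO pileups of these 7 members ran from 13 to 29 fragments, beside a median of 34 over the 39 members with a DMSO peak and of 28 over all genes with one. The share in DMSO alone fell with strength. Over all genes it was 32.2% at 13 to 29 fragments and 1.66% above that range. Among members it was 7 of 16 (43.8%) and 0 of 23. The range was set by these same 7 members, so no contrast with all genes is drawn from it. A missing call does not mean a missing signal. The limit was worked out for all 13 end sites seen in DMSO alone, which include sites of KMT2D, SETDB2 and KDM6B. At their DMSO background, 7 to 23 fragments would have been needed to reach the weakest p-value listed in inflachromene (−log10 p of 5.88). That is 0.538 to 0.793 times the DMSO pileup. The caller's minimum width is a further condition that was not taken into account.

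At shared sites of the members, the summit mostly held fewer fragments in inflachromene. The pileup of the strongest site ranged from 15 to 97 fragments in inflachromene with a median of 32, and from 17 to 96 in DMSO with a median of 40.5. It was lower in inflachromene at 25 of 32 members (78.1%, against 77.3% of 7267 genes), higher at 5 (15.6%, against 18.3%) and equal at ASH1L and SETD6. The ratio of inflachromene to DMSO pileup had a median of 0.807 over the members and 0.822 over all genes. The summed pileups were 1186 in inflachromene and 1388 in DMSO, a ratio of 0.854 (0.79 to 0.924), against 0.82 (0.815 to 0.824) over all genes. The pileup was at least 1.5 times lower in inflachromene at 3 members, KMT2D, SUZ12 and NSD2 (9.38%, against 18.8% of all genes), and at least 1.5 times higher at KDM6A alone (3.12%, against 1.17%). SETDB2 and its readthrough gene SETDB2-PHF11 share their start and their peak, so the 32 members stand for 31 sites.

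**Figure D2:**
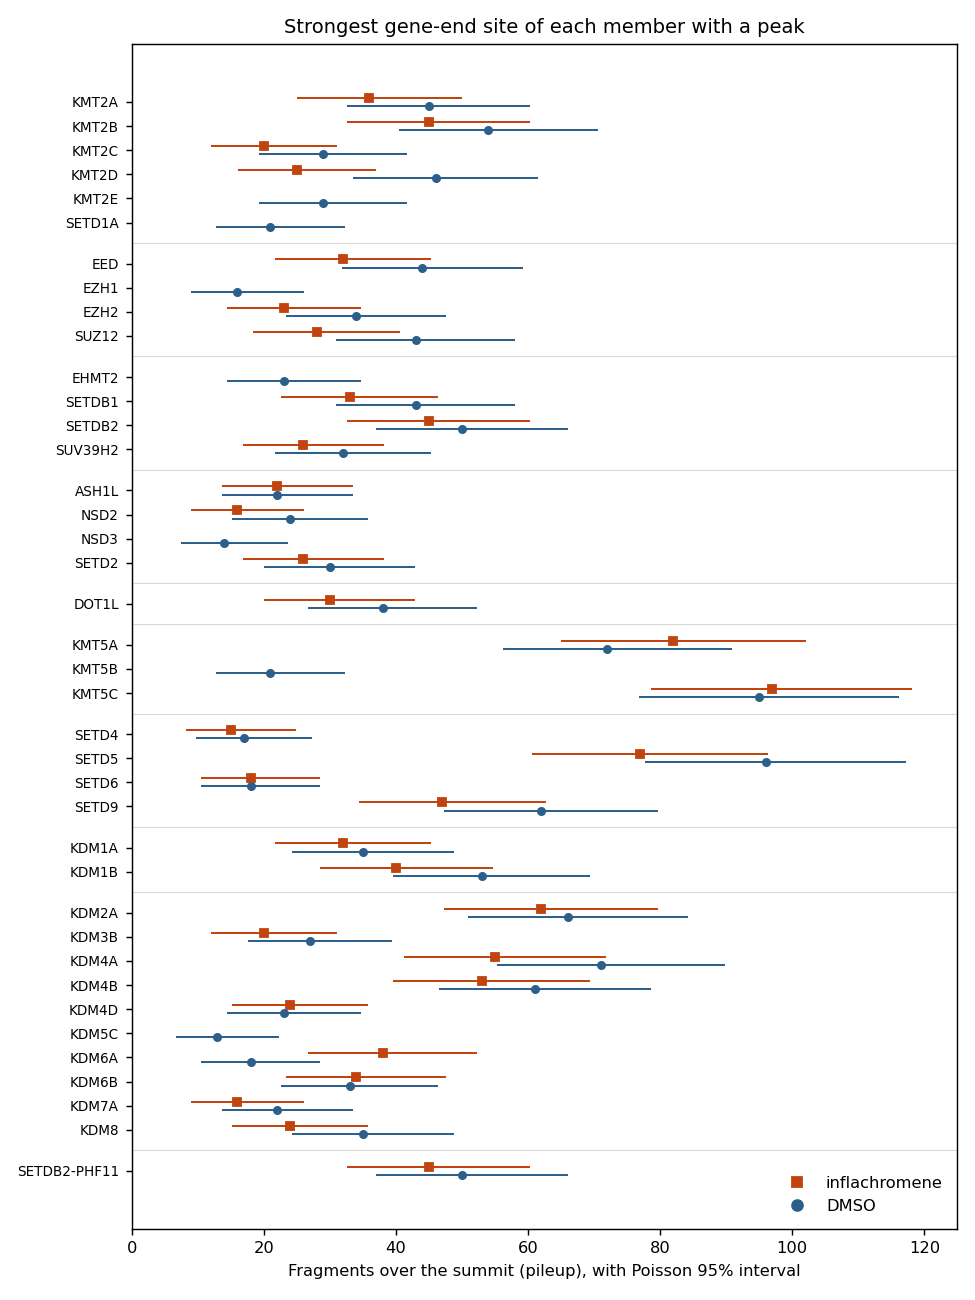
Fragments over the summit (horizontal axis) at the strongest gene-end site of each of the 39 members with a peak, inflachromene as squares above DMSO as circles, with Poisson 95% intervals; grey lines separate the role groups. KMT5C, KMT5A and SETD5 hold the highest pileups, 7 members have a DMSO point only, and KDM6A is the member whose inflachromene point lies farthest to the right of its DMSO point in proportion.

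**Figure D3:**
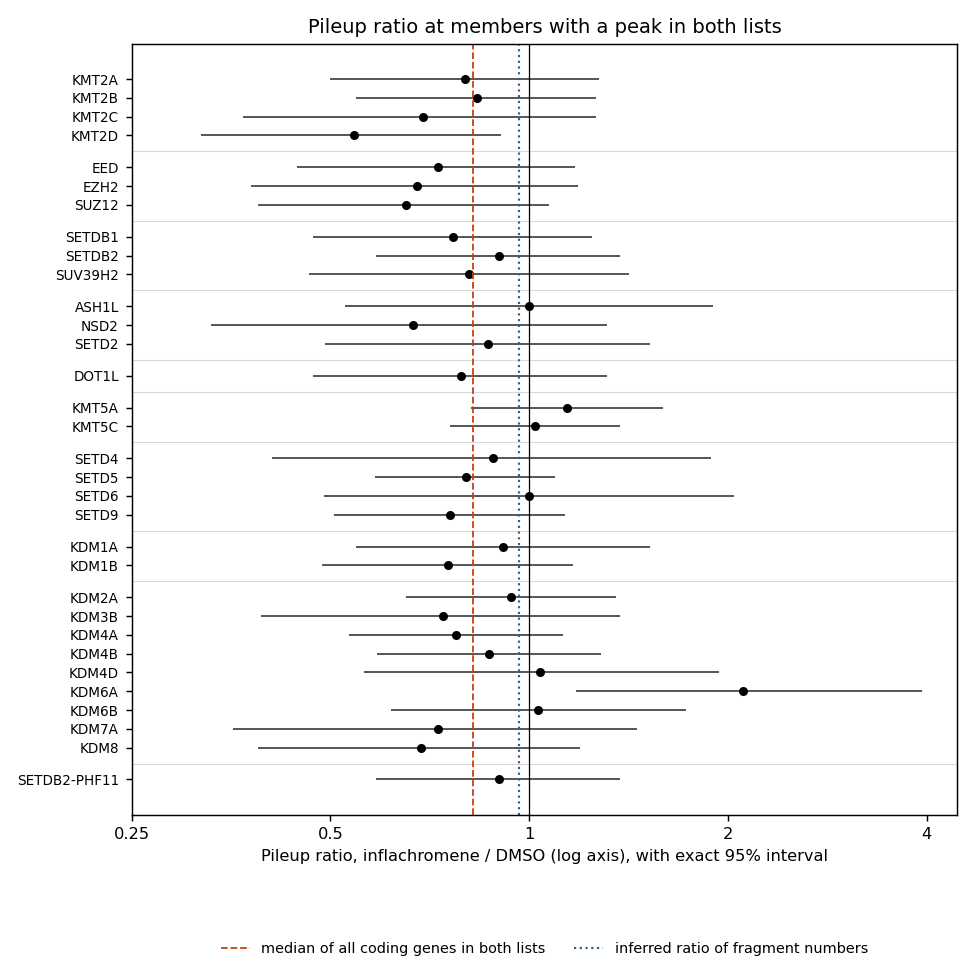
Ratio of inflachromene to DMSO pileup (horizontal log axis) with exact 95% intervals at the 32 members with a peak in both lists. The dashed line is the median of all coding genes (0.822). The dotted line is the inferred ratio of fragment numbers (0.964), which leaves out the difference in fragment length. KMT2D at 0.543 and KDM6A at 2.11 are the members whose interval leaves out 1, but the interval of KMT2D includes the dashed line.

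Of the 8 genes grouped as H3K4 methyltransferases, 4 had a shared peak, KMT2E and SETD1A had one in DMSO alone, and SETD1B and SETD7 had none at either end. Summed over the 4, inflachromene held 126 fragments and DMSO 174 (ratio 0.724, 0.571 to 0.916, beside 0.82 over all genes). Without KMT2D, whose site lay at its 3′ end, the sums were 101 in inflachromene and 128 in DMSO (ratio 0.789, 0.602 to 1.03). KMT2B, the MLL-family enzyme of the trithorax group, had the strongest site (chromosome 19, 35717520 to 35717987 in inflachromene and 35717474 to 35717941 in DMSO), with 45 fragments at 8.64-fold in inflachromene and 54 at 9.82-fold in DMSO. A weaker second site upstream of it held 24 fragments in inflachromene and 21 in DMSO, and both also lay at an end of ZBTB32. KMT2A, the MLL1 gene rearranged in leukaemia, had 36 fragments in inflachromene and 45 in DMSO (ratio 0.8, 0.501 to 1.27). KMT2C, an enhancer H3K4 monomethyltransferase, had 20 in inflachromene and 29 in DMSO (ratio 0.69, 0.37 to 1.26). The intervals of the KMT2A and KMT2C ratios include 1.

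KMT2D, the partner enzyme of KMT2C at enhancers, owed its place among the genes with peaks in both lists to its 3′ end. That site (chromosome 12, 49018667 to 49018927 in inflachromene and 49018675 to 49018980 in DMSO) held 25 fragments in inflachromene and 46 in DMSO, a ratio of 0.543 (0.32 to 0.903). The interval includes the 0.82 of all genes, and 4.38% of all genes with a site in both lists had a ratio as low. The site also lay at ends of PRKAG1 and DDN-AS1 and cannot be credited to KMT2D. At the start of KMT2D the only peak was in DMSO (49060755 to 49060924), with 21 fragments at 6.54-fold and its summit 5 bp from the start. SETD1A, the catalytic subunit of a SET1 complex, also had 2 sites, both in DMSO alone. The one at its start (chromosome 16, 30957582 to 30957883) held 20 fragments at 6.02-fold, and the one at its 3′ end (30984890 to 30985244), shared with HSD3B7, held 21 at 6.05-fold. KMT2E, a member of the family thought to lack catalytic activity, had its DMSO peak (chromosome 7, 105014033 to 105014252) with 29 fragments at 5.44-fold, 63 bp upstream of the start in the sequence printed above and also at an end of KMT2E-AS1. The starts of KMT2D, SETD1A and KMT2E thus had a DMSO peak and no inflachromene peak, while those of KMT2A, KMT2B and KMT2C had peaks in both lists. Over all genes with a tabulated start, 9.73% had a start peak in DMSO alone and 40.5% in both lists. Over all genes whose strongest DMSO pileup was 13 to 29 fragments, 32.2% had gene-end peaks in DMSO alone.

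Of the 5 PRC2 genes, EED, SUZ12 and EZH2 had a shared peak, EZH1 had one in DMSO alone, and EZHIP, which encodes an inhibitor of the complex, had none. All 3 shared sites held fewer fragments in inflachromene, beside 77.3% of all genes with a site in both lists. The sums were 83 in inflachromene and 121 in DMSO (ratio 0.686, 0.512 to 0.915, which includes the 0.82 of all genes). EED, the subunit that reads trimethylated H3K27, had 32 fragments at 8.9-fold in inflachromene (chromosome 11, 86244910 to 86245301) and 44 at 12.7-fold in DMSO (86244654 to 86245296). SUZ12, the scaffold subunit, had 28 at 9.12-fold in inflachromene and 43 at 13.2-fold in DMSO (ratio 0.651, 0.39 to 1.07). EZH2, the catalytic subunit of dividing cells, had 23 in inflachromene and 34 in DMSO (ratio 0.676, 0.38 to 1.18), at a site that also lay at an end of LOC124901767. Each single interval includes 1, and 15.7% of all genes with a site in both lists had a ratio as low as that of SUZ12. EZH1, the catalytic subunit that predominates in resting cells, had a DMSO peak with 16 fragments at 8.35-fold, its summit 10 bp upstream of the start (chromosome 17, 42744779 to 42745200).

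Of the 6 H3K9 methyltransferase genes, SETDB1, SETDB2 and SUV39H2 had a shared peak, EHMT2 had one in DMSO alone, and SUV39H1 and EHMT1 had none at either end. The 3 shared sites held 104 fragments in inflachromene and 125 in DMSO (ratio 0.832, 0.635 to 1.09). SETDB2 had the strongest (chromosome 13, 49443959 to 49444439 in inflachromene and 49443934 to 49444440 in DMSO), with 45 fragments at 15.4-fold in inflachromene and 50 at 15.5-fold in DMSO, shared with the neighbouring gene CAB39L and with SETDB2-PHF11. SETDB1, which silences retroelements with TRIM28, had 33 fragments in inflachromene and 43 in DMSO (ratio 0.767, 0.472 to 1.24), shared with LOC107985204. SUV39H2, an enzyme of constitutive heterochromatin, had 26 in inflachromene and 32 in DMSO (ratio 0.812, 0.465 to 1.41), shared with SUV39H2-DT. EHMT2, the G9a dimethyltransferase of euchromatin, had a DMSO peak with 23 fragments at 5.79-fold (chromosome 6, 31897582 to 31897762), 43 bp past the start and also at an end of C2.

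Of the 5 H3K36 methyltransferase genes, SETD2, ASH1L and NSD2 had a shared peak, NSD3 had peaks in DMSO alone, and NSD1 had none. SETD2, the trimethylating enzyme that travels with RNA polymerase II, had the strongest site (chromosome 3, 47163979 to 47164353 in inflachromene and 47163977 to 47164496 in DMSO), with 26 fragments at 8.47-fold in inflachromene and 30 at 9.26-fold in DMSO, shared with KIF9-AS1. ASH1L had 22 fragments in both libraries, at a site with ends of MSTO1 and ASH1L-AS1. NSD2, a dimethyltransferase overexpressed in some myelomas, had 16 in inflachromene and 24 in DMSO (ratio 0.667, 0.331 to 1.31). NSD3, on chromosome 8, had a DMSO peak at each end, with 13 fragments at 8.16-fold near PLPP5 (38269123 to 38269532) and 14 at 5.11-fold near LETM2 (38382346 to 38382611). The H3K79 methyltransferase gene DOT1L had 30 fragments at 7.77-fold in inflachromene (chromosome 19, 2163703 to 2164065) and 38 at 9.53-fold in DMSO (2163643 to 2163999), shared with AP3D1.

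Of the 3 H4K20 methyltransferase genes, KMT5C and KMT5A had a shared peak and KMT5B had peaks in DMSO alone. KMT5C, the enzyme that trimethylates H4K20 in pericentric heterochromatin, had 97 fragments at 12.6-fold in inflachromene (chromosome 19, 55339210 to 55339886) and 95 at 12-fold in DMSO (55339204 to 55339908). KMT5A, the monomethyltransferase needed for S phase and mitosis, had 82 at 16.9-fold in inflachromene and 72 at 16.0-fold in DMSO. Neither site lay at an end of another gene. The ratio of KMT5C, 1.02 (0.761 to 1.37), was reached or exceeded by 17.9% of all genes with a shared site, and that of KMT5A, 1.14 (0.82 to 1.59), by 9.04%. Both intervals include 1. KMT5B, the paralogue of KMT5C, had 2 DMSO peaks and no inflachromene peak (chromosome 11). These held 20 fragments at 4.67-fold (68212690 to 68213046) and 21 at 4.79-fold (68213490 to 68213895), the stronger one inside the printed promoter. At each, 15 fragments would have been needed to reach the weakest p-value listed in inflachromene.

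Of the other SET domain genes, SETD4, SETD5, SETD6 and SETD9 had a peak in both lists, and SETD3 had none at its ends. SETD5, a chromatin factor that associates with HDAC3 co-repressor complexes, had a broad site (chromosome 3, 9396283 to 9397749 in inflachromene and 9396208 to 9397757 in DMSO) with 77 fragments at 7.96-fold in inflachromene and 96 at 8.18-fold in DMSO, shared with THUMPD3-AS1. SETD9, a little studied gene, had 47 fragments in inflachromene and 62 in DMSO (ratio 0.758, 0.508 to 1.13). SETD6, which methylates the NF-kB subunit RELA, had 18 in both libraries, and SETD4 had 15 in inflachromene and 17 in DMSO. The SETD6 site also lay at an end of NDRG4, and the SETD4 site at an end of SETD4-AS1.

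Both flavin demethylase genes had a peak in both lists. KDM1B, the LSD2 enzyme, had 40 fragments at 13.5-fold in inflachromene (chromosome 6, 18155033 to 18155472) and 53 at 15.7-fold in DMSO (18155011 to 18155466), shared with TPMT. KDM1A, the LSD1 enzyme of the CoREST complex, had 32 in inflachromene and 35 in DMSO (ratio 0.914, 0.548 to 1.52).

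Of the 17 jumonji demethylase genes, 9 had a shared peak, KDM5C had one in DMSO alone and 7 had none at either end. The 9 held 326 fragments in inflachromene and 356 in DMSO (ratio 0.916, 0.786 to 1.07), and without KDM6A 288 in inflachromene and 338 in DMSO (ratio 0.852, 0.726 to 1.0). KDM2A, an H3K36 demethylase that binds unmethylated CpG islands, had the strongest site (chromosome 11, 67118856 to 67119334 in inflachromene and 67118819 to 67119319 in DMSO), with 62 fragments at 12-fold in inflachromene and 66 at 13.0-fold in DMSO, shared with LOC107984341. KDM4A, a demethylase of H3K9 and H3K36, had 55 in inflachromene and 71 in DMSO (ratio 0.775, 0.535 to 1.12). Its paralogue KDM4B had 53 in inflachromene and 61 in DMSO (ratio 0.869, 0.59 to 1.28). KDM4D, the paralogue best known from testis, had 24 in inflachromene and 23 in DMSO at a site shared with CWC15, but its fold enrichment was 11.0 in inflachromene and 11.2 in DMSO. The H3K9 demethylase gene KDM3B had 20 in inflachromene and 27 in DMSO. KDM8, also called JMJD5, had 24 in inflachromene and 35 in DMSO (ratio 0.686, 0.39 to 1.19). KDM7A, which acts on H3K9 and H3K27, had 16 in inflachromene and 22 in DMSO (ratio 0.727, 0.357 to 1.45) at a site shared with KDM7A-DT. None of these intervals leaves out 1.

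KDM6A, the X-linked UTX enzyme that works within KMT2C and KMT2D complexes, had 38 fragments in inflachromene (Poisson interval 26.9 to 52.2; chromosome X, 44872916 to 44873224) and 18 in DMSO (10.7 to 28.4; 44872916 to 44873149). The fold enrichment was 13.9 in inflachromene and 8.17 in DMSO, and the ratio of pileups 2.11 (1.18 to 3.93) was the highest of the members. A ratio as high was found at 0.0688% of all genes with a site in both lists, and one of at least 2 at 9 genes (0.124%). The extreme of 32 ratios was picked by its value, so its interval describes counting error at a chosen site. On chromosome X, 185 genes had a site in both lists, with a median ratio of 0.855, and KDM6A was the only one among them with a ratio of at least 2. KDM6B, the inducible JMJD3 enzyme, had 34 fragments in inflachromene and 33 in DMSO upstream of its start, shared with DNAH2, and a further site in DMSO alone with 29 fragments. KDM5C, an X-linked H3K4 demethylase, had a DMSO peak with 13 fragments at 6.88-fold (53225025 to 53225220), also at an end of IQSEC2.

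Ordered by ratio, the 5 lowest members were KMT2D, SUZ12, NSD2, EZH2 and KDM8, and the 5 highest KDM6A, KMT5A, KDM4D, KDM6B and KMT5C. Writers without the readthrough gene held 743 fragments in inflachromene and 894 in DMSO over 20 genes in both lists (ratio 0.831, 0.753 to 0.917), with a lower pileup at 16, beside 77.3% of all genes. These sums include PRC2 subunits and the other SET domain genes, of which the latter held 157 in inflachromene and 193 in DMSO. Erasers held 398 in inflachromene and 444 in DMSO over 11 genes (ratio 0.896, 0.781 to 1.03), with a lower pileup at 8, and without KDM6A 360 in inflachromene and 426 in DMSO (ratio 0.845, 0.732 to 0.975). The intervals of writers and erasers overlap, and the difference was not tested.

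Peaks at member ends were mainly promoter peaks. The RefSeq promoter table gives a strand for 49 members. Of 45 distinct end sites, 39 lay nearest the 5′ end and 3 nearest the 3′ end (at KMT2D, SETD1A and SETDB2), and for 3, at NSD3 and DOT1L, the strand is not in the table. The median distance of the DMSO summit from the nearest tabulated start was 178 bp, and 28 of 42 lay within 250 bp, as the plot around annotated starts shows. At 23 of the 39 members a site also lay at an end of another coding or lncRNA gene. The same shares were not counted over all genes, so these positions are not shown to be particular to the members.

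**Figure D4:**
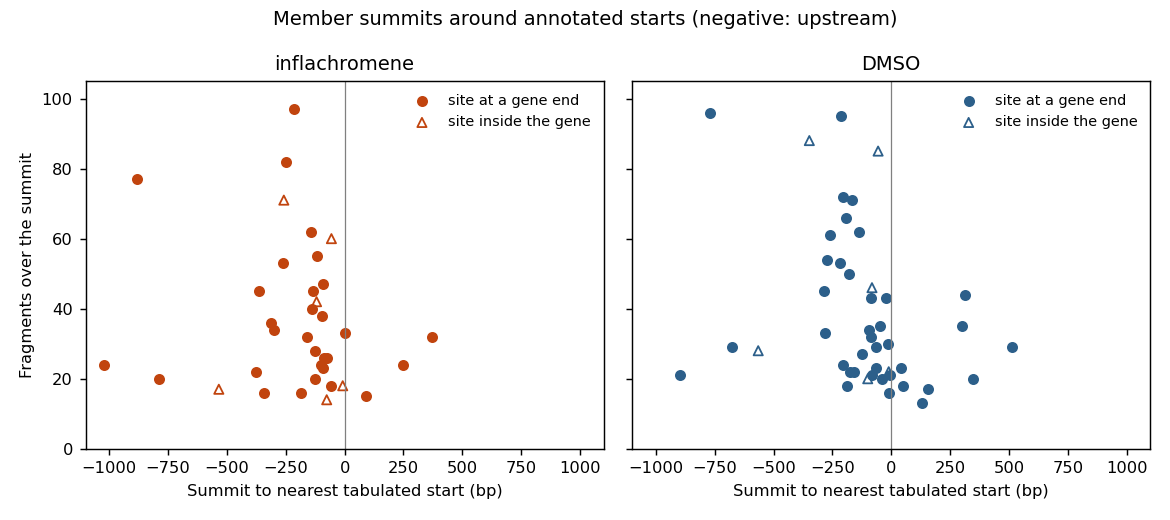
Fragments over the summit (vertical axis) against the distance of the summit from the nearest tabulated start (horizontal axis, bp, negative upstream), inflachromene on the left and DMSO on the right; filled circles are sites at gene ends and open triangles sites more than 1000 bp inside the gene, and summits beyond the ends of the axis are not drawn. Most summits lie just upstream of a start, and the open triangles include sites of 71 fragments in inflachromene and 88 in DMSO at SETD3.

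The end rule left out starts that lie inside the widest annotated extent of a gene. Of the 14 members without an end peak, 5 had peaks within the gene in both lists, namely SETD3, KDM3A, SUV39H1, KDM2B and SETD1B. SETD3, the actin histidine methyltransferase gene, had 71 fragments in inflachromene and 88 in DMSO at its tabulated start, shared with CCNK. KDM3A, a hypoxia-inducible H3K9 demethylase gene, had 42 in inflachromene and 46 in DMSO at a tabulated start, and upstream of it a second site with 17 in inflachromene and 28 in DMSO. SUV39H1, the first described H3K9 methyltransferase, had 14 fragments in inflachromene and 20 in DMSO, with the DMSO summit 1080 bp from the annotated end and thus just outside the window. The farthest DMSO summit inside it was 996 bp away, the 3′ site of SETDB2 at the start of PHF11, with 11 fragments. KDM2B, the CpG island protein that recruits a variant Polycomb complex, had 18 fragments in inflachromene and 22 in DMSO at an internal tabulated start, and elsewhere in the gene 2 sites in DMSO alone with 17 fragments each. SETD1B, the paralogue of SETD1A, has no start in the table and had 3 sites inside the gene, with 32, 19 and 16 fragments in inflachromene and 43, 20 and 19 in DMSO, the strongest shared with RHOF and LINC01089.

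With only the tabulated starts considered, 34 of 49 members had a shared peak (40.5% of 15812 genes), 7 one in DMSO alone (9.73%) and 8 none (48.1%), with KMT2D in the DMSO class and NSD3, which has no tabulated start, not counted. No member had a start peak in inflachromene alone (1.63% of all genes). The remaining 9 members without any peak at an end or inside the gene were KDM5B, KDM5A, KDM4C, KDM4E, KDM4F, SETD7, NSD1, EHMT1 and EZHIP. Among them KDM5A and KDM5B are H3K4 demethylases and SETD7 an H3K4 monomethyltransferase, so that of the 3 KDM5 genes on these chromosomes only KDM5C had a peak, and that in DMSO alone. The DMSO summit nearest to KDM5B lay 2437 bp from its start.

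Inside members, more than 1000 bp from both ends, there were 22 sites in 14 genes, of which 17 were shared, 4 were DMSO sites and 1 was an inflachromene site without a counterpart. Of the 4, the one in SETDB2-PHF11 is the 3′ site of SETDB2 described above, and KDM4B held one with 12 fragments. The pileup was lower in inflachromene at all 17 shared sites, against 71.2% of 2162 such sites in all coding genes. KDM6B held 4 of the 17, SETD1B 3 and KDM3A 2, so the sites do not stand for 17 separate genes. The fold enrichment was lower in inflachromene at 15 of the 17. At the KMT5C body site it was 4.03 in inflachromene and 3.84 in DMSO, and at the second SETD1B site 4.23 in inflachromene and 4.05 in DMSO. The sums were 524 fragments in inflachromene and 670 in DMSO (ratio 0.782, 0.696 to 0.878), and the median ratio was 0.818, against 0.846 over all genes. The differences were small at several sites, with 13 fragments in inflachromene and 14 in DMSO within KMT2A, and 17 in inflachromene and 18 in DMSO within SETD5. Of the 21 body sites with a DMSO peak, 19% had no inflachromene peak, against 46.5% of 4043 in all coding genes. The body sites of members and of all genes were not matched for strength, so neither contrast can be read as a trait of the members. Of the 22 member sites, 6 lay within 1000 bp of a tabulated start.

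Among the shared body sites the internal promoter of KDM2A ranked next to SETD3 by mean pileup. At the tabulated start of its shorter transcript, known to encode a form without the demethylase domain, there were 60 fragments at 12.3-fold in inflachromene and 85 at 17-fold in DMSO (ratio 0.706, 0.499 to 0.994). That interval includes the 0.82 of all genes, and 25.1% of all genes with a shared end site had a ratio as low. At the start of the long transcript the counts were 62 in inflachromene and 66 in DMSO, as given above. KDM6B held 4 sites inside the gene, all in both lists, with 35, 40, 42 and 39 fragments in inflachromene and 42, 53, 62 and 46 in DMSO. Its end site upstream of the start, with 34 in inflachromene and 33 in DMSO, was the only paired KDM6B site without a lower inflachromene pileup. The body site in inflachromene alone lay in KDM7A, 1601 bp past the start, with 22 fragments at 7.18-fold.

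**Figure D5:**
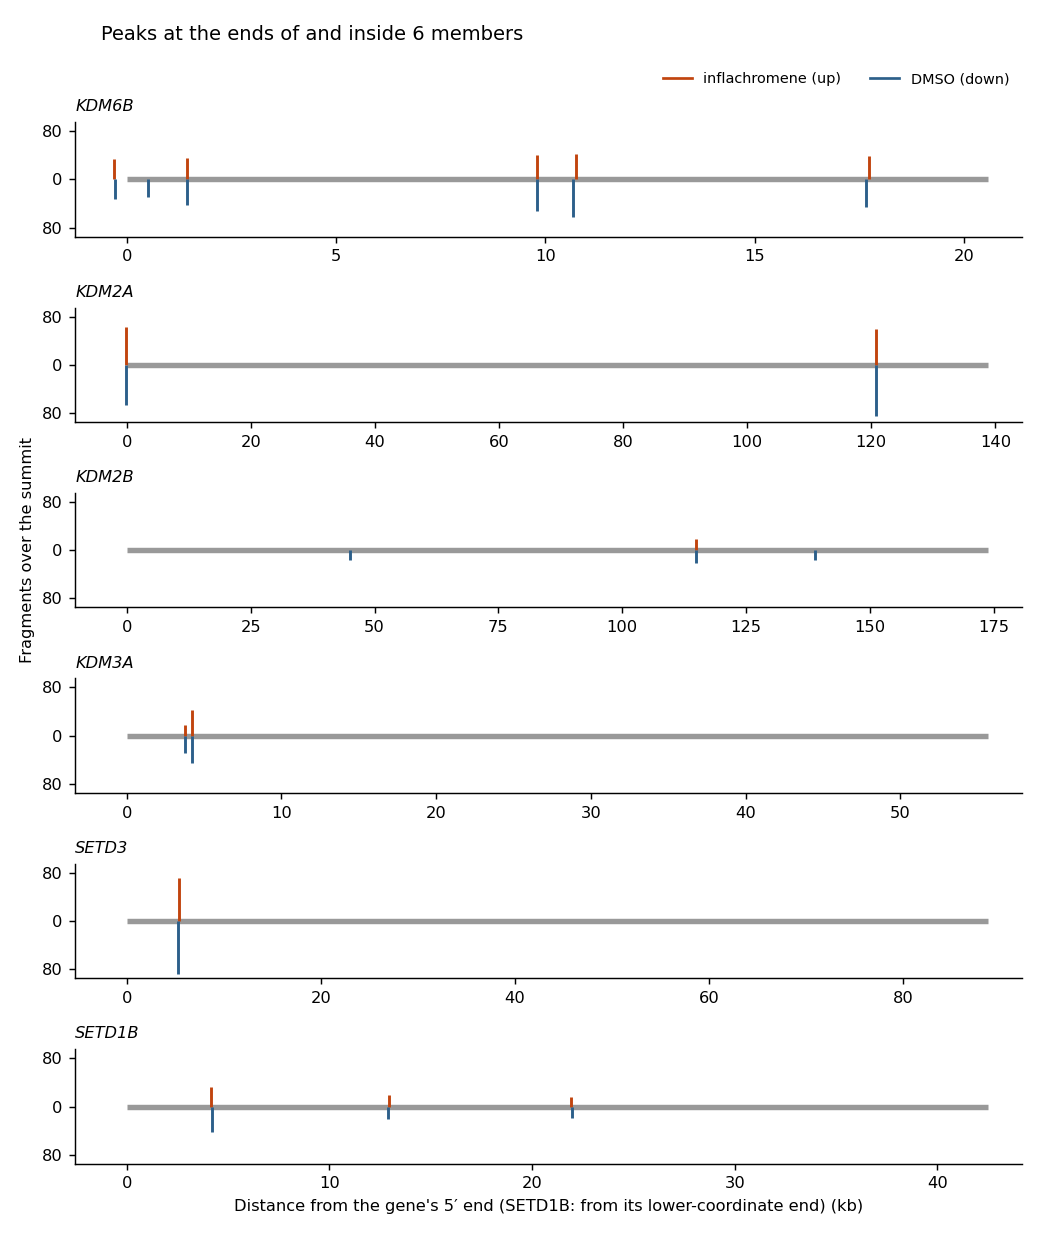
Summits at the ends of and inside 6 members along the gene (horizontal axis, kb from the 5′ end, for SETD1B from the end with the lower coordinate); line height is the number of fragments over the summit, inflachromene upward and DMSO downward, and the grey bar is the gene. KDM6B carries 6 sites, KDM2A 1 near its 5′ end and 1 at an internal start, and SETD3 and KDM3A have their peaks a few kb inside the annotated extent.

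Genes that work with the members were followed in 7 further lists with 67 genes in all, of which 40 had a shared peak (36.6% of all genes), 6 one in DMSO only (9.26%), 1 one in inflachromene only (1.59%) and 20 none (52.6%). Over the 40 the summed pileup was 1234 in inflachromene and 1466 in DMSO (ratio 0.842, 0.78 to 0.909), against 0.82 over all genes. Of 15 partner subunits of the COMPASS H3K4 complexes, 10 had a shared peak, PAXIP1 (17 fragments) and HCFC2 (18) in DMSO alone, and PSIP1, the chromatin tether of KMT2A, in inflachromene alone (16). RBBP5, a core subunit, had 68 fragments in inflachromene and 71 in DMSO, and MEN1, encoding menin, had 40 in inflachromene and 64 in DMSO. Of 9 accessory genes of PRC2, 5 had a shared peak and EPOP one in DMSO alone (25 fragments). PHF1 had 65 fragments in inflachromene and 73 in DMSO, shared with KIFC1, and RBBP4 had 56 in inflachromene and 69 in DMSO, shared with ZBTB8OS. At 4 of these 5 shared sites the inflachromene pileup was the lower, beside 77.3% of all genes with a site in both lists.

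Of 9 CoREST partners of KDM1A, 7 had a shared peak and 0 a peak in 1 list alone (ratio of sums 0.845). The inflachromene pileup was lower at 6 of the 7, beside 77.3% of all genes with a site in both lists. HMG20B, the HMG-box subunit of that complex, had 56 fragments in inflachromene and 44 in DMSO, and the scaffold gene RCOR1 had 49 in inflachromene and 51 in DMSO. Of 10 further jumonji genes, 5 had a shared peak and RIOX2 one in DMSO alone (10 fragments). JMJD6 had 44 fragments in inflachromene and 50 in DMSO, shared with METTL23, and HIF1AN had 32 in inflachromene and 33 in DMSO. Of 9 arginine methyltransferase genes, 6 had a shared peak and PRMT9 one in DMSO alone (17 fragments). PRMT5, the main symmetric dimethyltransferase, had 61 fragments in inflachromene and 51 in DMSO, shared with PRMT5-DT, whereas CARM1, a co-activator enzyme, had 52 in inflachromene and 72 in DMSO. The arginine methyltransferase genes in both lists were lower in inflachromene at 2, higher at 2 and equal at 2. Over all genes 77.3% were lower and 18.3% higher.

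Of 10 SMYD and PRDM methyltransferase genes, 3 had a shared peak, SMYD3 one in DMSO alone (13 fragments) and 6 none. SMYD4 had 20 fragments in inflachromene and 27 in DMSO, shared with RPA1, and SMYD5 had 20 in both. Of 5 heterochromatin readers, 4 had a shared peak, each with a lower inflachromene pileup, beside 77.3% of all genes with a site in both lists. CBX3, which encodes an HP1 protein that binds methylated H3K9, had 56 fragments in inflachromene and 69 in DMSO at a site shared with HNRNPA2B1. CBX5, which encodes another, had 50 in inflachromene and 60 in DMSO at a site shared with HNRNPA1.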

How the data were processed

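ChIPmentation libraries of PANC-1 cells, 1 per treatment, were represented by the authors' peak lists. Per the labels' protocols, cells were fixed in 15 mM EGS for 30 min and 1% formaldehyde for 10 min, quenched with 125 mM glycine. The genome build was hg38 and the tools were MACS2 and deepTools 3.5.6, per the submitters' processing notes; the sources used here give no MACS2 version, aligner, control library or handling of duplicates.

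Each deposited row gives a whole-number score (not used), a fold enrichment (ratio to local background), the p-value and q-value as −log10, and the summit offset. The lowest deposited −log10 q was 3.01 in inflachromene and 3.02 in DMSO. The pileup was recovered as the whole number that, with MACS2's formulas (pileup + 1 over background + 1, and a Poisson p-value), gave the deposited −log10 p within 0.001. This succeeded for all 10836 inflachromene and 15186 DMSO peaks; the step was tested on simulated data made with the same formulas, which does not test the formulas. The recovered backgrounds implied mean fragment lengths of 165.7 bp in inflachromene and 152.4 bp in DMSO, from which the ratio of fragment numbers was inferred. The lists give no read totals, so the depth is otherwise unknown.

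Genes, ends and promoters came from RefSeq tables of GRCh38.p14. A peak pair overlapped by at least 1 bp; a gene's strongest site was the shared site with the highest mean pileup. Share intervals are Clopper-Pearson, pileup intervals Poisson, and ratio intervals exact conditional binomial; summits of neighbouring sites can share fragments, and PCR duplicates are not independent molecules. The members, role groups, related lists and motifs were chosen with earlier results of these data known. All members are named; positions are given for the strongest site of each role group and for members with a peak in 1 list alone, and in related lists the genes with a peak in 1 list alone and the 2 strongest are named. Alternatives covered the window, the overlap, the threshold, list length, tabulated starts, own summits, fold enrichment and fragment number. Python 3.11.15, numpy 2.4.6, pandas 2.3.3, scipy 1.17.1 and matplotlib 3.10.9 were used.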

Additional observations from a re-analysis of the deposited data

How the results depend on the processing

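No paired analysis was possible because each treatment had 1 sample. None of the alternatives turned the direction of the summed or median ratio over the members or moved a count of members by over 1.5 times. With fold enrichment in place of pileup, 3 single sites turned direction: KDM4D at its end (0.981, against 1.04 by pileup), and the body sites of KMT5C (1.05, against 0.917) and SETD1B (1.04, against 0.95). The number of members with a peak in both lists ran from 28 to 36 over 9 alternatives, lowest with a window of 500 bp and highest with tabulated starts added to gene ends. The number with a peak in DMSO alone ran from 5 to 7 over 8 alternatives, with 5 when the longer list was shortened to the length of the other, and the number in inflachromene alone was 0 in all 7. The members with a lower inflachromene pileup numbered 21 to 29 over 9 alternatives. The ratio of summed pileups ran from 0.838, without KDM6A, to 0.886, with the inflachromene pileup divided by the ratio of fragment numbers, over 10 alternatives. That division leaves out the difference in fragment length between the libraries. The median ratio ran from 0.807 to 0.863 over 8 alternatives, highest with fold enrichment in place of pileup. The alternatives without KDM6A, KMT2D or SETDB2-PHF11, with tabulated starts added to gene ends and with fold enrichment at single sites were chosen after the data were examined. At 30 of 32 distinct shared end sites the interval of the ratio, which covers counting error only, includes 1. The antibody's target is not given in the sources used here, and the spread between cultures was not measured.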
